A study of Mus musculus with 6 samples.

Results

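The heat shock chaperones of the cytosol and mitochondria, with their co-chaperones and the heat shock factors, were described in mouse tumours with an overexpressed microRNA, miR-155, from animals given doxycycline to withdraw it and from animals given none. Members were taken by symbol from the deposited gene table: the HSP90 genes with Stip1 and Ahsa1, the Hspa, Hspb, Hspd and Hspe genes, the J-domain genes Dnaja, Dnajb and Dnajc, the Bag genes, and Hsf1 and Hsf2. Named chaperones of the endoplasmic reticulum were left out. Of 29209 rows in the table, 66 were members, and 61 of these were among the 18543 rows with an adjusted p. The other 5 members (Dnajb8, Dnajc5b, Dnajc5g, Hspb2 and Hspb3) had no fold or p. The symbols do not hold to the label throughout: 7 tested members (Dnajb12, Dnajb14, Dnajc1, Dnajc10, Dnajc14, Dnajc16 and Dnajc18) belong to the endoplasmic reticulum, and Dnajc3a is an older symbol of Dnajc3, which had been left out.

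RNA was sequenced from subcutaneous tumours in NCr nude mice, an athymic strain, that had been injected with spleen cells of diseased mir-155LSLtTA mice. In the DOX group (3 samples) mice ate chow with 2.3 mg/kg doxycycline for 16 hours before harvest, and in the no DOX group (3 samples) they received none. Both groups carry the transgene, so an effect of doxycycline itself cannot be told apart from that of the microRNA's withdrawal. The promoter that drives the transgene, and whether the samples came from separate animals or from 1 donor, are not given in the sources used here, and p-values therefore reflect variation among these 6 samples alone, part of which can be technical. The table holds 1 ratio and its p-values per gene, with no level or depth per sample. Its numerator is not stated; ratios were read as DOX over no DOX, and with the opposite reading each fall below would be a rise.

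Molecular chaperones bind unfolded proteins and let them fold without clumping. HSP70 proteins take clients from J-domain (DNAJ) proteins and release them when nucleotide exchange factors of the HSP110 and BAG families act, and HSP90 matures a later set of clients, among them many kinases and steroid receptors. In mitochondria an HSP70 pulls in precursors, and the HSP60 and HSP10 ring folds them. HSF1 is the main activator of the inducible chaperones under heat or proteotoxic stress.

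Hspd1 and Hspe1 stand head to head on chromosome 1 and both fell, so a window at a start of each is shown, with that of Stip1, which fell too, and that of the inducible HSP70 gene Hspa1a, which was not called, for comparison. The sequences are RefSeq windows of 300 bases on GRCm38.p6, from 250 bases before to 50 after an annotated start, each 5′ to 3′ on the gene's strand. Capitals mark paired heat shock units (GAANNTTC or TTCNNGAA), the E-box CACGTG, and CCAAT on either strand. The windows are chr1:55087898-55088197 (plus strand) for Hspe1, chr1:55088194-55088493 (minus strand) for Hspd1, chr19:7039977-7040276 (minus strand) for Stip1 and chr17:34972107-34972406 (minus strand) for Hspa1a.
Hspe1: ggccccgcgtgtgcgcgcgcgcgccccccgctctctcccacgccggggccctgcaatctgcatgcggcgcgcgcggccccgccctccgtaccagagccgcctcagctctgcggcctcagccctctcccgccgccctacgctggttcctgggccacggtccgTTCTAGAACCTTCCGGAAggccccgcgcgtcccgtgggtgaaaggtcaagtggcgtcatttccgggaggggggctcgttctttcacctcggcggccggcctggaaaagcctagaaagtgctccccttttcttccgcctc
Hspd1: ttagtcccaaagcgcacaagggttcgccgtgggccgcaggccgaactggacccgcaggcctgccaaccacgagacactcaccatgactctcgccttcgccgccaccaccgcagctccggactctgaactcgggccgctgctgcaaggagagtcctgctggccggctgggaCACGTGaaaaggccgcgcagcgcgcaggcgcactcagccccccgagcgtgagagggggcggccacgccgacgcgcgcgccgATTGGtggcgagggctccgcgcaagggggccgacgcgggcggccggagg
Stip1: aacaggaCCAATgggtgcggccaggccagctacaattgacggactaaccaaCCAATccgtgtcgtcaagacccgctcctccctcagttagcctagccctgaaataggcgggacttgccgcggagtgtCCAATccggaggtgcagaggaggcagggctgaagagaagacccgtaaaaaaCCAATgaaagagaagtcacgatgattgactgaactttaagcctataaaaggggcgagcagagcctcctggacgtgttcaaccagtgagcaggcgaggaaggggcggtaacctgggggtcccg
Hspa1a: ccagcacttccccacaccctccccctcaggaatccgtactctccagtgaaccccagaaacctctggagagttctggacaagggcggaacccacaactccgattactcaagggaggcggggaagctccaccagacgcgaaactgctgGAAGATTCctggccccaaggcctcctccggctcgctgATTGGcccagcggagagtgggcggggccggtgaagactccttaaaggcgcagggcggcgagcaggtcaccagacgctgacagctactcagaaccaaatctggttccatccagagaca

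In the Hspe1 window 3 overlapping paired units lay in a row, beginning at position -89 from the start (chr1:55088059-55088076). RefSeq gives Hspd1 a second start, and the window of that start (chr1:55087883-55088182, minus strand) shares 285 bases with the Hspe1 window and holds the same units on the other strand. The Hspd1 window printed above belongs to the other start, which lies inside Hspe1, past the Hspe1 start. It is thus not the stretch between the head-to-head starts. That printed window shares only 4 bases with the Hspe1 window and holds no heat shock unit. The E-box and CCAAT marked for Hspd1 lie in it and not in the window of the second start. A run of 3 alternating units (GAA and TTC, each 2 bases apart), the minimal heat shock element as textbooks draw it, was found in 198 of all 32851 windows (0.603%). Among members, 53 of 66 symbols had windows, 70 in all. Hsp90ab1 and Hspa9, the falls of smallest adjusted p, are not among them, so the motif counts take in 4 of the 6 genes that fell. The 3-unit run was in 4 of those windows (5.71%), which belong to Hspe1, Hspd1 and Dnajb6. Windows can overlap, and these 4 hold only 2 distinct sites, 1 shared by Hspe1 and Hspd1 and 1 by both Dnajb6 windows, while the 198 windows hold 176. The pair GAANNTTC, with or without the 3-unit run, was in 14 of the 70 member windows (20%) and in 7.86% of all windows. TTCNNGAA was in 8.57% and 8.52%. CACGTG, the E-box that MYC and other factors bind, was in 7.14% of member windows and 7.15% of all, and CCAAT in 35.7% and 37.4%. The paired units are parts of the 3-unit run, so these counts overlap. Stip1 held CCAAT at 4 positions and neither heat shock unit nor E-box, while the Ahsa1 window held none of these motifs. Hspa1a and Hspa1b each held 1 GAANNTTC, at position -104, and their windows were identical at 296 of 300 bases. These are matches of letters, and none of them was tested for binding.

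**Figure D1:**
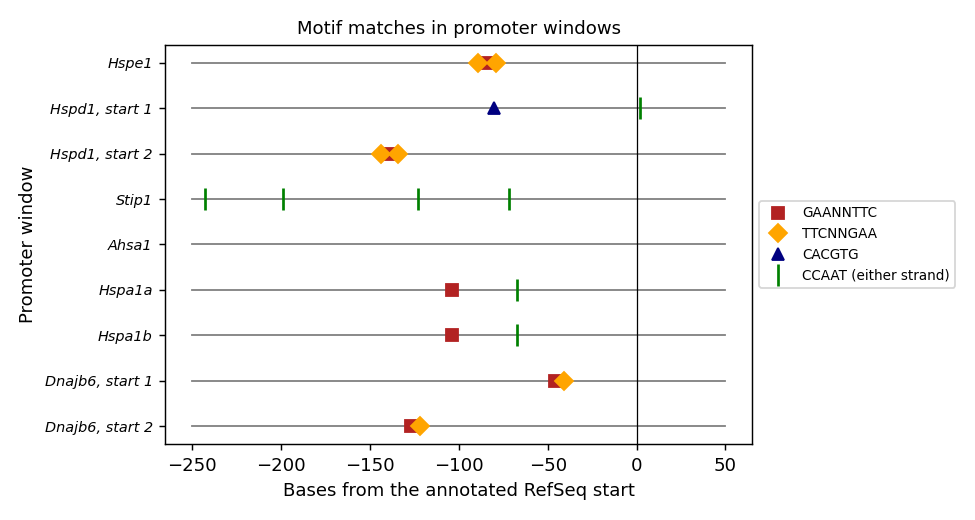
Each grey line is 1 promoter window of 300 bases, drawn by distance in bases from the annotated RefSeq start, and symbols mark the first base of each motif match. The 3 paired heat shock units of Hspe1 begin at positions -89, -84 and -79, Dnajb6 has 2 overlapping units before each of its starts, and Ahsa1 has no mark.

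Of the 61 tested chaperone genes 6 fell and 0 rose at an adjusted p under 0.05 in the authors' deposited table. Over all tested rows 5.61% fell and 5.72% rose, against 9.84% and 0% of the chaperones. At an unadjusted p under 0.05 the chaperones numbered 11 of 61 lower and 1 of 61 higher in the authors' deposited table, beside 10.4% and 11.9% of all rows. The 6 genes that fell were Hsp90ab1, Hspa9, Hspe1, Hspd1, Stip1 and Ahsa1, which encode the constitutive HSP90, the mitochondrial HSP70, the mitochondrial HSP10 and HSP60, and a pair of HSP90 cofactors. A finite fold was given for 59 chaperones, and it was below 1 for 38 of them (64.4%) and for 44.1% of all tested rows with a finite fold. Their median log2 fold was -0.27 in the authors' deposited table, and the median of all tested rows was 0.17, so relative to that shift the chaperones lay at -0.44.

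Macrophage markers moved with this comparison: 4 of 13 tested rose and 0 fell, and the 13 log2 folds ran from 0.41 to 4.75 (median 2.16) in the authors' deposited table. Of 10 fibroblast markers 2 rose (median 1.85), and of 11 B lineage markers 3 rose and 2 fell (median 0.41), in the authors' deposited table. Of 9 tested skeletal muscle markers, 5 tested T cell markers and 2 tested germ cell markers 0 passed in the authors' deposited table, where at an unadjusted p under 0.05 there were 1 lower muscle and 1 higher T cell marker. Beside these marker counts, 5.61% of all tested rows fell and 5.72% rose. At an unadjusted p under 0.05, 10.4% of all tested rows were lower and 11.9% higher. The muscle markers had a median log2 fold of 2.07, with 6 of 8 finite folds above 1, and the T cell markers one of 0.82, in the authors' deposited table. The part of these markers in the chaperone values was not tested. In tumour samples of this kind, fewer cells of a type and less RNA per cell cannot be told apart.

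**Figure D2:**
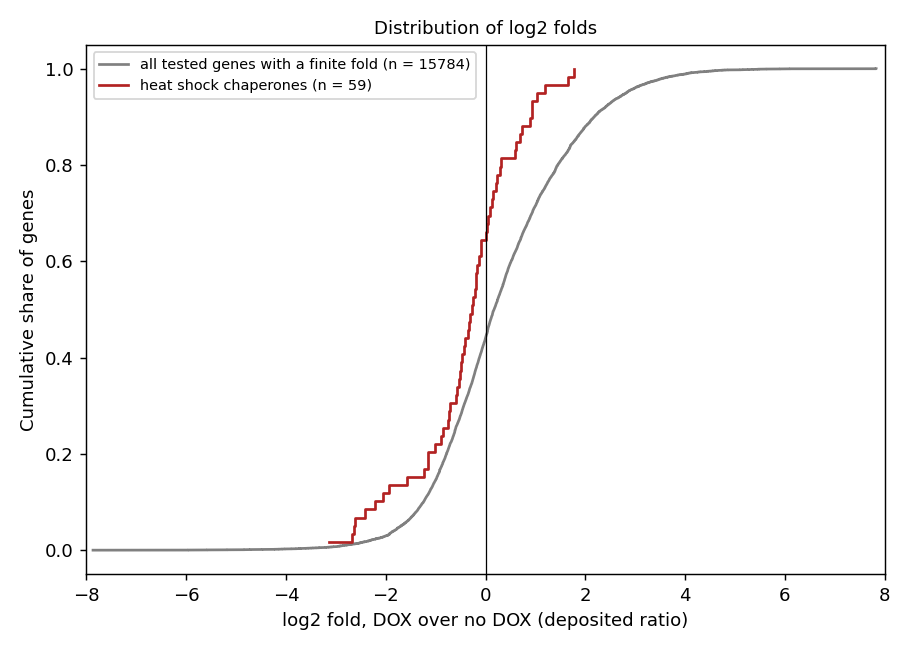
Cumulative share of genes (vertical axis) by log2 fold, DOX over no DOX, for all tested genes with a finite fold (grey, 15784) and for the 59 chaperone genes (red). The chaperone line lies to the left of the grey line over most of the range and ends at 1.77.

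The smallest adjusted p among the falls belonged to the HSP90 group. Hsp90ab1, the constitutive cytosolic HSP90, had a log2 fold of -2.61 (6.10-fold lower, adjusted p = 4.17e-09) in the authors' deposited table. Under a normal test its unadjusted p corresponds to a standard error of 0.38, and the 95% interval implied by it runs from -3.36 to -1.86. Its stress-inducible paralog Hsp90aa1 had -0.57 (adjusted p = 0.318) in the authors' deposited table, with an implied interval from -1.22 to 0.08. The intervals of the paralogs do not overlap, but the difference between them was not tested. Stip1, the adaptor that hands clients from HSP70 to HSP90, fell by 1.93 on the log2 scale (adjusted p = 0.00261) in the authors' deposited table. Ahsa1, which stimulates the HSP90 ATPase, fell by 1.58 on that scale in the authors' deposited table (adjusted p = 0.0326), the smallest of the 6 falls and the one of highest adjusted p. All 4 genes of the group thus had a fold below 1, and 3 of the 4 fell. Of all tested rows 5.61% fell, and 44.1% of those with a finite fold lay below 1. The group holds only the HSP90 cofactors of the member list, and others are counted below.

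Every one of the 7 tested members assigned to mitochondria had a fold below 1, and 3 of them fell, with a median in the authors' deposited table of -0.71 on the log2 scale. Dnajc28 and Dnajc30, also of mitochondria, are listed under older symbols (ORF28 and Wbscr18) and were not counted. Their log2 folds were 0.99 (adjusted p = 0.648) and -0.45 (0.871) in the authors' deposited table, so Dnajc28 lay above 0. Hspa9, the matrix HSP70 (mortalin), had -2.42 (5.35-fold lower, adjusted p = 8.69e-08, implied interval -3.17 to -1.67) in the authors' deposited table. Hspd1, the HSP60 ring, had -2.22 (adjusted p = 0.000229, implied interval -3.16 to -1.28) in the authors' deposited table. For Hspe1, its HSP10 lid, the authors' deposited table gave -2.05 (adjusted p = 0.000142, implied interval -2.90 to -1.20). The head-to-head pair Hspd1 and Hspe1 thus lay 4.66-fold and 4.15-fold lower, each log2 fold within the other's implied interval. The J-domain partners of mitochondria did not pass: Dnaja3, the matrix partner of Hspa9, had -0.71 (adjusted p = 0.464) in the authors' deposited table. Dnajc19 (-0.54) and Dnajc15 (-0.48), J-proteins of the import motor, and Dnajc11 (-0.42), of the outer membrane, had adjusted p-values of 0.780, 1 and 0.667 in the authors' deposited table. Among the 54 tested members outside this class 3 fell (5.56%), beside the 5.61% of all rows. A fold below 1 was given for 44.1% of all tested rows with a finite fold.

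Beside the 5.61% of all tested rows that fell and the 5.72% that rose, calls among HSP70 genes were few. Of 11 tested HSP70 and HSP110 genes 1 fell (9.09%), Hspa9, and 0 rose in the authors' deposited table. Next came Hspa4, an HSP110 exchange factor, at -1.01 (adjusted p = 0.0606, implied interval -1.75 to -0.27), and Hspa8, the constitutive cytosolic HSP70, at -1.15 (0.131, -2.13 to -0.16), in the authors' deposited table. Both implied intervals lie below 0, and neither gene passed the threshold over all tested rows. The inducible cytosolic HSP70 genes Hspa1a and Hspa1b had log2 folds of -0.44 (adjusted p = 0.752) and 0.88 (0.953) in the authors' deposited table. These copies are almost the same in sequence, so how reads were divided between them is uncertain. Hspa1l had the lowest log2 fold of the 59 chaperones, -3.13, with an adjusted p of 0.902 in the authors' deposited table, and is named here for its value. The other 5 members of this family, Hspa14, Hspa12a, Hspa2, Hspa4l and Hspa12b, had log2 folds from -0.27 to 1.20 in the authors' deposited table and none passed.

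**Figure D3:**
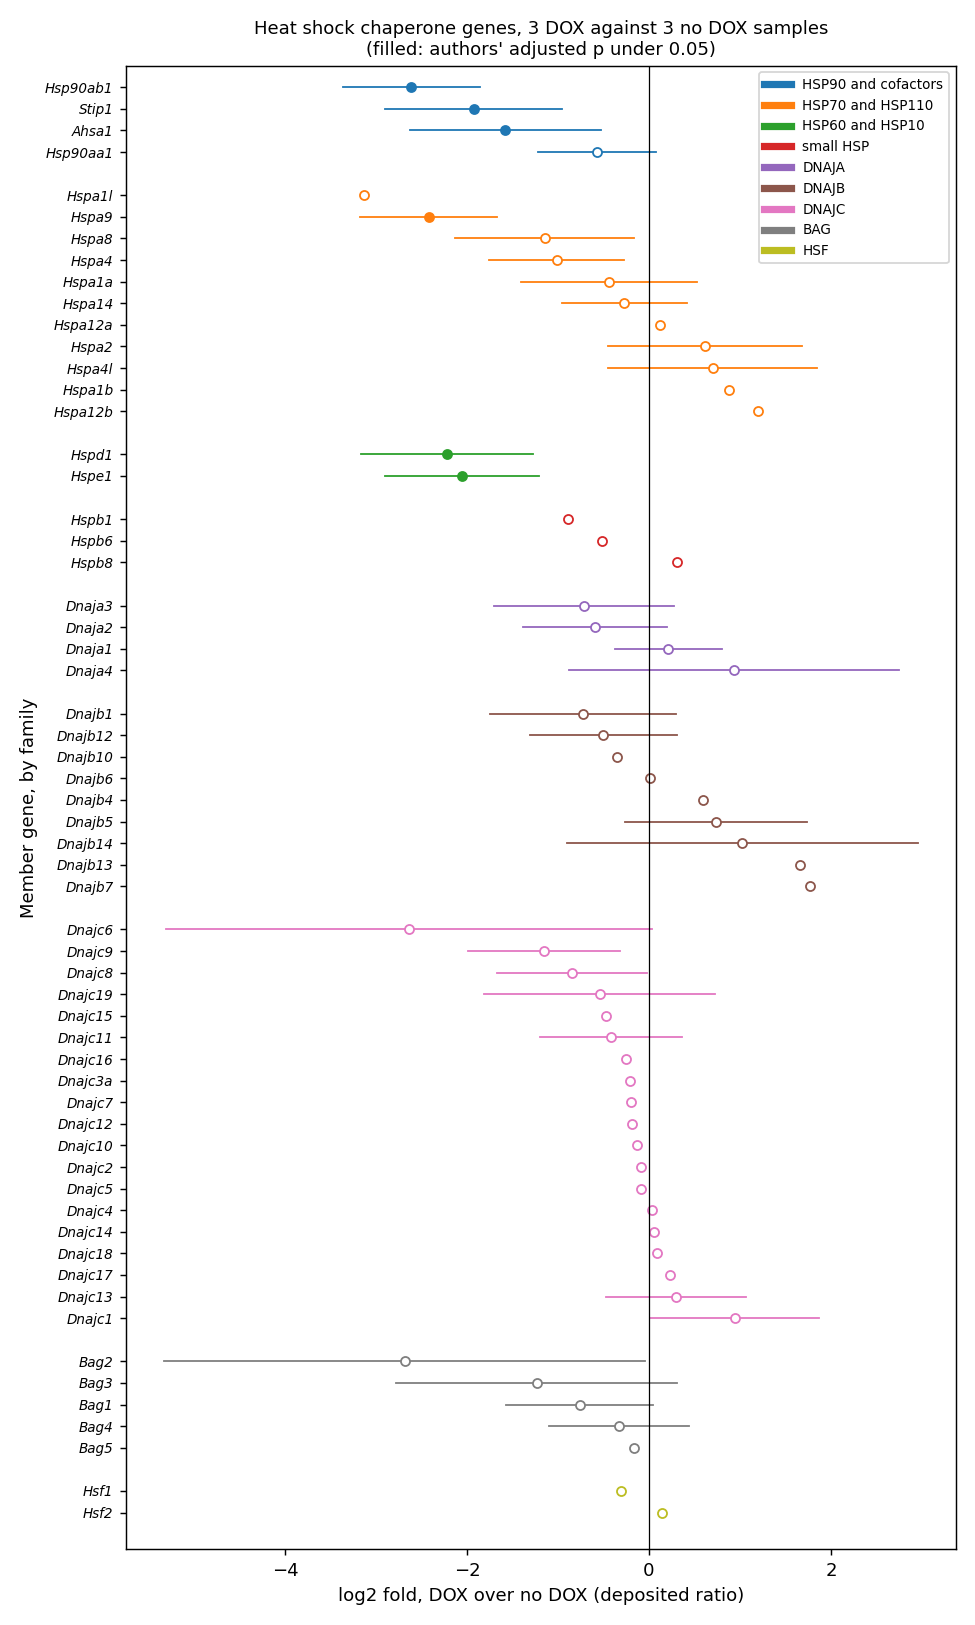
Log2 fold, DOX over no DOX (horizontal axis), of the 59 chaperone genes with a finite fold, grouped and coloured by family, with filled circles for the 6 that fell. Bars are 95% intervals implied by the authors' unadjusted p, drawn where p was at most 0.5 and the implied standard error at most 1.5; Hsp90ab1, Hspa9, Hspd1 and Hspe1 lie farthest from 0 among filled circles.

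The J-domain genes, which choose clients for HSP70, were the largest family and held no call. Of 33 tested Dnaj genes 0 fell and 0 rose in the authors' deposited table, beside 5.61% and 5.72% of all tested rows. At an unadjusted p under 0.05, 2 were lower and 1 higher, beside 10.4% and 11.9% of all tested rows. The median log2 fold of the 32 with a finite fold was -0.11. Dnajc9, a co-chaperone of histones H3 and H4, was just outside the threshold at -1.15 (adjusted p = 0.0555, implied interval -1.98 to -0.32) in the authors' deposited table. Dnajc8, which is found with the spliceosome, had -0.85 (adjusted p = 0.203), and Dnajc1, of the endoplasmic reticulum, had 0.94 (0.213), in the authors' deposited table. Dnaja1 and Dnaja2, cytosolic partners of HSP70, had 0.21 (adjusted p = 0.851) and -0.59 (0.436) in the authors' deposited table. Dnajb1, the inducible HSP40, had -0.72 (adjusted p = 0.476), and Dnajb5 0.74 (0.449), in the authors' deposited table. For Dnajb6, a suppressor of aggregation whose promoter window holds the 3-unit run, the authors' deposited table gave 0.02 (adjusted p = 1). By class, the median was -0.19 for 4 Dnaja, 0.59 for 9 Dnajb and -0.19 for 19 Dnajc genes with a finite fold. The Dnajb log2 folds ran from -0.72 to 1.77. Their median implied standard error, where p allowed one, was 0.75, beside 0.45 for Dnaja and 0.42 for Dnajc. Differences between these classes were not tested. The 7 members of the endoplasmic reticulum, counted without Dnajc3a (-0.21), had a median of 0.05. None of the 7 passed in the authors' deposited table, with 1 higher at an unadjusted p under 0.05.

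Of 5 tested BAG genes, which release nucleotide from HSP70, 0 passed in the authors' deposited table, beside 5.61% fallen and 5.72% risen of all tested rows. All 5 had a fold below 1 (median -0.76), as did 44.1% of all tested rows with a finite fold. Only Bag2 was lower at an unadjusted p under 0.05, beside 10.4% of all tested rows. It had a log2 fold of -2.68 (adjusted p = 0.214) with an implied interval of -5.33 to -0.04 in the authors' deposited table. Bag3, which joins HSP70 and small heat shock proteins to autophagy, had -1.23 (adjusted p = 0.388, implied interval -2.78 to 0.31) in the authors' deposited table. Bag1 (-0.76), Bag4 (-0.33) and Bag5 (-0.16) lay nearer 0 in the authors' deposited table. Small heat shock proteins hold unfolded clients without ATP, and of 4 tested genes 0 passed in the authors' deposited table, with 0 at an unadjusted p under 0.05. Hspb6 had -0.51 (adjusted p = 0.867), Hspb1 -0.88 (1) and Hspb8 0.30 (1) in the authors' deposited table. Hspb7 and the J-domain gene Dnajb3 were listed with an infinite ratio in the authors' deposited table, which gives no fold.

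Transcripts of the heat shock factors themselves gave no call. Hsf1 had a log2 fold of -0.31 (adjusted p = 0.971) and Hsf2 one of 0.14 (1) in the authors' deposited table. These are RNA values, and HSF1 is known to be regulated mainly as a protein. In the list of 15 textbook HSF1 targets among the members, 5 fell and 0 rose (33.3%, median -0.88) in the authors' deposited table, beside 5.61% and 5.72% of all tested rows. The 5 were Hsp90ab1, Hspd1, Hspe1, Stip1 and Ahsa1, while Hspa1a, Hspa1b, Hspa8, Hspa4l, Hsp90aa1, Hspb1, Hspb8, Dnajb1, Dnaja1 and Bag3 did not pass. That list was chosen with earlier results of these data known, and its count is a description.

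Other genes of the chaperone system were counted from lists that share no gene with the members. Beside these counts, 5.61% of all tested rows fell and 5.72% rose, and at an unadjusted p under 0.05 10.4% were lower and 11.9% higher, in the authors' deposited table. Of 24 tested HSP90 and HSP70 cofactors 4 fell and 1 rose (median -0.71), and 11 were lower and 2 higher in the authors' deposited table at an unadjusted p under 0.05. Those that fell were Nudc (-1.79), Ptges3, the HSP90 co-chaperone p23 (-1.65), Aarsd1 (-1.65) and Ppp5c, an HSP90-bound phosphatase (-1.46), in the authors' deposited table. Cdc37l1, a relative of the kinase-specific HSP90 adaptor Cdc37, rose in the authors' deposited table, by 1.56 (adjusted p = 0.00186), and Cdc37 itself had a ratio of 0.502 (0.0607). Of 13 mitochondrial chaperones and proteases 2 fell and 0 rose (median -0.62) in the authors' deposited table. They were Clpp, a matrix protease (-1.96), and Trap1, the mitochondrial HSP90 (-1.41), in the authors' deposited table. Of 13 prefoldin and other folding genes 5 fell and 0 rose (median -0.98) in the authors' deposited table. Here Ppia, cyclophilin A (-2.11), Fkbp1a, a prolyl isomerase (-1.62), and the histone chaperone genes Npm1 (-1.59) and Nap1l1 (-1.17) fell, as did Btf3, of the nascent chain complex (-0.98), in the authors' deposited table. The prefoldin genes of that list, Pfdn1, Pfdn2, Pfdn4, Pfdn5 and Vbp1, did not pass, with log2 folds from -1.23 to 0.31. Of 14 genes of HSF1 regulation and stress 0 passed in the authors' deposited table, with 3 lower and 1 higher at an unadjusted p under 0.05. Among them Hmox1, an oxidative stress gene, had 3.43 (adjusted p = 0.249) and Vcp, an unfolding ATPase, -0.93 (0.0517) in the authors' deposited table.

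**Figure D4:**
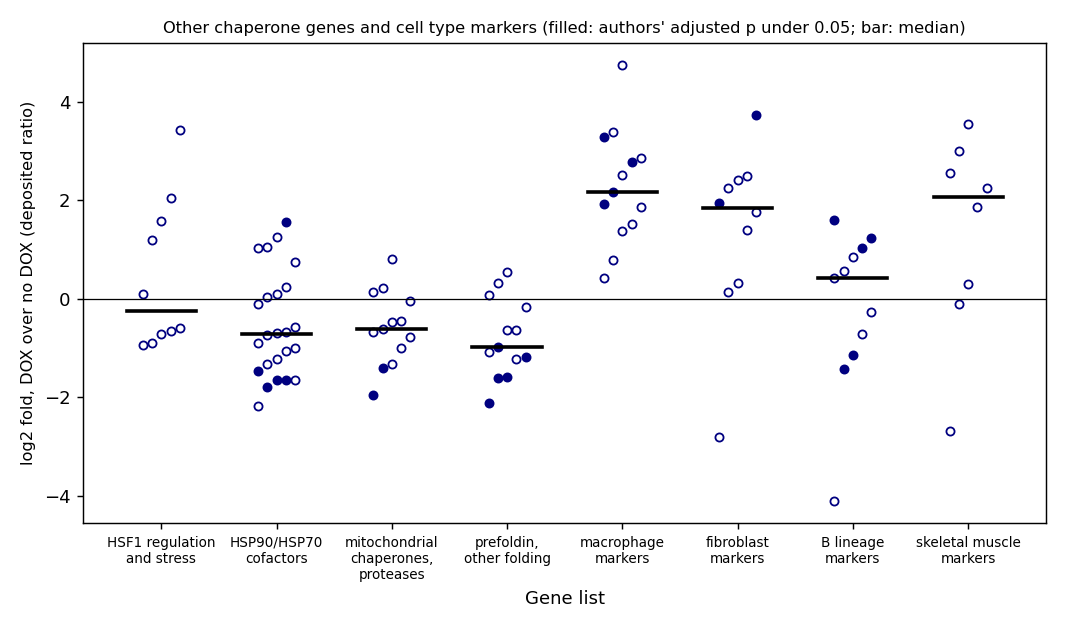
Log2 fold, DOX over no DOX (vertical axis), of genes in 4 chaperone lists outside the members and 4 cell type marker lists, with filled circles for calls and a bar at each median. The medians of the chaperone lists lie between -0.98 and -0.25, and those of the marker lists between 0.41 and 2.16.

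Transcript length moved with the folds, both among chaperones and among all genes. Spearman's rho of log2 fold with the length of the longest coding transcript was 0.31 over the 59 chaperones and 0.28 over 13040 tested genes, genes not being independent replicates. All 6 chaperones that fell had transcripts of up to 4000 bases, from 774 for Hspe1 to 3049 for Hspa9. Among transcripts of up to 1500 bases 2 of 9 chaperones fell (22.2%) and 15.0% of all genes. Between 1500 and 2500 bases it was 2 of 14 (14.3%) and 10.2%, and between 2500 and 4000 it was 2 of 20 chaperones and 6.50% of all genes. Above 4000 bases 0 of 16 chaperones and 3.69% of all genes fell. The part of length in the chaperone values was not tested.

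**Figure D5:**
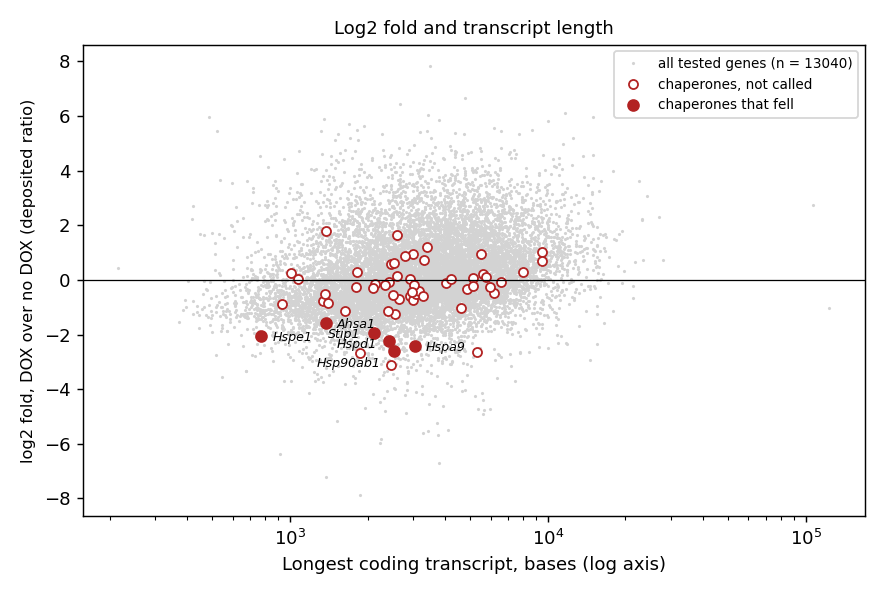
Log2 fold, DOX over no DOX (vertical axis), against the length in bases of the longest coding transcript (log axis) for 13040 tested genes (grey) and the 59 chaperones (red, filled for the 6 that fell). The filled circles lie between 774 and 3049 bases, and the chaperones above 4000 bases are all open.

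Since miR-155 was the molecule withdrawn, the 3′ UTRs of the members were searched for its seed matches AGCATTA and GCATTAA, on the transcript strand, in the longest coding transcript of GENCODE M21 (GRCm38). Of 66 members 9 held at least 1 match: Bag4, Bag5, Dnaja1, Dnajb1, Dnajb14, Dnajb4, Dnajc14, Dnajc3a and Dnajc6. Dnajb1 and Dnajc6 are shown because in each both matches overlap, which makes the longest match to the seed. Capitals mark AGCATTA, at chr8:83611877-83611883 (plus strand) in Dnajb1 and chr4:101641124-101641130 (plus strand) in Dnajc6.
Dnajb1: gcagtgtgacAGCATTAaagactgatg
Dnajc6: tttggtcaagAGCATTAacaattattg

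None of the 6 genes that fell held a match, where 9 of all 66 members held at least 1. The share of all genes with a match was not counted, and counts this small show nothing about the sites. The 9 genes with a match had log2 folds from -2.64 to 1.02 (median -0.16) in the authors' deposited table. Of these 9, 0 fell and 0 rose, beside 5.61% and 5.72% of all tested rows. The 50 others with a finite fold had a median of -0.33. Dnajc6, the neuronal auxilin that uncoats clathrin vesicles, had -2.64 (adjusted p = 0.232) in the authors' deposited table, and Dnajb14 had 1.02 (0.669). No change in any of these 9 was called in the authors' comparison, and this does not show that they did not change.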

How the data were processed

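RNA-seq was run on ribosome-depleted total RNA of tumour cells that had been dispersed and freed of red cells, per the labels' protocols. The submitters' processing notes name RSEM, DESeq and mm9, without versions. The deposited ratio (fold change) and the unadjusted and adjusted p-values come from the authors' comparison of both groups, per the file headers. Counts and depth per sample are unknown, so samples were not tested here. The log2 of that ratio was computed here. The deposited adjusted p-values match a Benjamini-Hochberg adjustment over 18543 rows to within 2.09e-06, and a call is an adjusted p under 0.05.

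Implied standard errors are the size of the log2 fold over the two-sided normal quantile at the authors' p, where that is at most 0.5; they are approximations. This limit was first 0.9 and was lowered after some errors at high p looked too small. Motif and seed searches, length bands and the error limit of a plot were also chosen after the table had been seen. Rows were matched to RefSeq symbols (GRCm38.p6) by symbol (11736), accession (1406) or unique synonym (2022), and 3379 tested rows had no match. Named genes are all called members, the member of smallest p per family, fixed members, and called genes of the other lists; others are given as ranges or examples chosen after their values were seen. Bag6 and Hsph1, fixed members, have no row under these symbols. Members and lists were chosen with earlier results of these data known. The counting procedure was tested on simulated data. Python 3.11.15, pandas 2.3.3 and scipy 1.17.1 were used.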

Additional observations from a re-analysis of the deposited data

How the results depend on the processing

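No paired analysis was possible because the table holds no value per sample, and leaving out each replicate was not run for the same reason. The count of 6 fallen chaperones became 3 under a Bonferroni adjustment, which by construction is stricter and ended the calls of Hspd1, Stip1 and Ahsa1. It was 5 at an adjusted p under 0.01 (without Ahsa1) and 8 under 0.1 (with Dnajc9 and Hspa4), and 6 in the other settings tried. The count of risen chaperones was 0 in every setting tried except that it became 1 when rows under older symbols were added, through Hspb11. The median log2 fold of -0.27 was negative in each setting, but its size was not stable. It was -0.44 when centred on all tested rows, and -0.43 among members in the lower 50% of implied spread with no limit on p. That spread takes in the errors at high p, some of which looked too small. It was -0.35 without members of the endoplasmic reticulum, -0.29 with 1 row per current symbol and -0.26 with rows under older symbols. Settings chosen after seeing the data were limits of 0.9 and 0.5 on p for the implied spread, which gave -0.47 and -0.59, and leaving out Dnajc3a, which gave 6 falls and a median of -0.29. The limits on p by construction leave out members of high p, many of them near 0, so their medians are no separate check of the fall. There is no replicate spread to read these moves against. Depth is unknown, so what it limits could not be worked out.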

Other observations

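In all, 10 rows carry older symbols or clone names of genes that belong to the same families, and 9 of them were tested. Of these, Hspb11, listed as 2900042B11Rik and known as a part of the intraflagellar transport machinery, rose by 1.80 on the log2 scale (adjusted p = 0.00508) in the authors' deposited table. Bag6, listed as Bat3, which guides tail-anchored proteins, had -0.77 (adjusted p = 0.161) in the authors' deposited table. Another row of Dnajc7, listed as mDj11, had 4.13 (adjusted p = 0.108), while the row Dnajc7 had -0.20 (1), in the authors' deposited table. The row Hsp110 carries a synonym of both Hsph1 and Hspa4 and was not assigned.

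Of the chaperones of the endoplasmic reticulum that the member list leaves out, Hspa5, the HSP70 known as BiP, fell by 1.21 on the log2 scale (adjusted p = 0.0309) in the authors' deposited table. Hsp90b1 (-0.44), Dnajb11 (-0.83), Dnajb9 (0.73) and Hspa13, listed as Stch (0.25), had adjusted p-values of 0.690, 0.171, 0.469 and 0.905 in the authors' deposited table.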
